A study of Homo sapiens with 18 samples.

Results

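The immediate early response genes examined here are 10 genes picked by symbol from a list: FOS, FOSB, JUN, JUNB, JUND, EGR1, EGR3, IER2, ATF3 and DUSP1. All 10 were found among the 55766 genes of the RNA table, and all 10 were among the 13786 genes with enough counts to be tested. The cells were K562, an established human erythroleukaemia line, and every group carried a B2M:tdTomato transgene, in which a red fluorescent protein is tied to the gene of the MHC class I light chain. One group was labelled TALE silenced and another dCas9 silenced, after the programmable DNA-binding protein that directed DNA methylation to the B2M promoter. Both had been given 3 plasmids together, each for its own ATR, and the dCas9 group a further plasmid for the sgRNA. The remaining group was labelled untreated. RNA-seq and MeDIP-seq, which sequences DNA captured with an antibody against 5-methylcytosine, were each made on 3 libraries per group. The labels give no time between treatment and collection. They do not say whether replicates came from separate cultures, so the p-values below measure the spread between these libraries, which may be technical.

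None of the 10 genes rose or fell past the threshold in silenced cells, with either protein or with the mean of both. The levels of EGR1, ATF3 and JUNB were lowest on average in TALE cells and highest in dCas9 cells, but single libraries overlapped between the groups for each of them. EGR1, the most abundant of the genes per unit length, averaged 138 ± 37.5 CPM (counts scaled to a common library size, SD, n = 3) in TALE cells, 173 ± 21.2 in untreated cells and 227 ± 62.9 in dCas9 cells. One library, dCas9 replicate 3, held the highest value of 7 of the 10 genes. No MeDIP region near the genes passed the threshold, and none of the listed regions covered a start site of the 10.

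Immediate early genes are transcribed within minutes of a stimulus, without the need for new protein, from factors already bound at their promoters. Growth factor signals reach them through RAS and ERK kinases, which phosphorylate ternary complex factors such as ELK1 that sit with serum response factor (SRF) on CArG boxes, while cyclic AMP and calcium act through CREB on cyclic AMP response elements (CRE). K562 cells carry the BCR-ABL fusion kinase, which keeps this route active without an added ligand. FOS and JUN proteins pair as the AP-1 transcription factor, EGR proteins are zinc-finger factors, and DUSP1 is a phosphatase that shuts the kinases off again.

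The targeted gene was checked first, since it bears on the labels. B2M had 48 to 79 counts in the untreated libraries, 3 to 7 in the TALE libraries and 2 to 3 in the dCas9 libraries, and the transgene entry, B2M_tomato, had 3115 to 4109, 128 to 196 and 140 to 205. Totals per RNA library lay between 8460076 and 12050554 counts, and totals per MeDIP library between 2529729 and 4492751. All 11 erythroid and K562 marker genes were detected and tested, GATA1 and the fetal globin genes among them, at a summed level of 6973 to 10686 CPM over the 9 libraries. Of the 15 markers of other cell types, CD3D (22.5 CPM) and EPCAM (105 CPM) were well above the rest. The fibroblast markers COL1A2 (5.80 CPM) and COL1A1 (1.85 CPM) were detected at lower levels. PDGFRB, CD3E, CD8A, CDH1, KRT5 and the B-cell and macrophage markers averaged under 1 CPM.

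EGR1 and JUNB had an unadjusted p under 0.05 (edgeR) in at least 1 comparison below and a single annotated window. DUSP1 had the largest difference of the 3 genes that were higher in TALE than in dCas9 cells. The upstream sequences of EGR1, JUNB and DUSP1 are shown here. Each is the 250 bases before the start site from the RefSeq promoter table (GRCh38.p14), and each matched GRCh37 exactly at 1 place on its chromosome: chr5:137800918-137801167 on the plus strand for EGR1, chr19:12902050-12902299 on the plus strand for JUNB and chr5:172198199-172198448 on the minus strand for DUSP1. They are written 5′ to 3′, and capitals mark matches to the motifs searched for.
EGR1: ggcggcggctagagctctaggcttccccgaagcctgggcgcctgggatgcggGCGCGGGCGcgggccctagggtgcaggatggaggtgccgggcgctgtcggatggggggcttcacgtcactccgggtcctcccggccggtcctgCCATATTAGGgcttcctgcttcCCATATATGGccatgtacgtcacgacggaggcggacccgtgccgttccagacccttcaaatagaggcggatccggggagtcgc
JUNB: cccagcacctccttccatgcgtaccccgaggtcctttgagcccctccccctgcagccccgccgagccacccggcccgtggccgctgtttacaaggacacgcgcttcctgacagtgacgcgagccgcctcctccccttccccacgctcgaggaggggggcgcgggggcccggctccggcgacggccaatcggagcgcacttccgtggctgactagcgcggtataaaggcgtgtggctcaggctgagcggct
DUSP1: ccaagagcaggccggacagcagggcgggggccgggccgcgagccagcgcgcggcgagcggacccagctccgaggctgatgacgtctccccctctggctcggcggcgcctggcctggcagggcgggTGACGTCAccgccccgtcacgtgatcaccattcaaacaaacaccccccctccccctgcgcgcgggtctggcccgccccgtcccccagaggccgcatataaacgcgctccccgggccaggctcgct
The 4 motifs were the CRE (TGACGTCA), the AP-1 site (TGANTCA), the EGR site (GCGNGGGCG) and the CArG box, each read on both strands over windows of 300 bases that reach 50 bases past the start. EGR1 held 2 CArG boxes, CCATATTAGG at 105 and CCATATATGG at 83 bases before its start, and an EGR site at 198. CArG boxes were found in 1.29% of all 35116 windows of the table and EGR sites in 9.43%. A CRE lay 125 bases before the start of DUSP1 and 200 bases before that of JUND, against 1.85% of all windows. No AP-1 site was found in the 10 windows of the 9 genes that the table holds, against 7.71% of all windows. A match or its absence describes only these letters in this window. The 2 windows of ATF3 held 4 and 1 CpG, fewer than the windows of the other genes. They were not matched to the ATF3 start used for MeDIP below, so these counts describe only the 2 windows. JUND had 49, DUSP1 36, EGR1 33, FOS 30, JUNB 29, IER2 27, FOSB 23 and JUN 16. The median over all windows was 14.

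Levels were compared between genes as CPM per kb of exon length, in untreated cells. EGR1 stood highest at 55.2 ± 6.77 CPM per kb (SD, n = 3), followed by JUND at 31.9 ± 1.10. These are the 93.8 and 88.9 percentiles among 11366 tested genes with a length. IER2 at 14.2 ± 1.06 and JUNB at 11.6 ± 1.63 came next. JUN, at 5.02 ± 0.398, was close to the median gene, at the 50.4 percentile. DUSP1 at 3.63 ± 0.602 and ATF3 at 2.91 ± 0.447 did not differ beyond the spread of their libraries. The same held for FOS at 0.680 ± 0.201 and FOSB at 0.543 ± 0.186. EGR3 was lowest at 0.119 ± 0.0996, at the 1.00 percentile. The other neighbours in this order did not overlap in the 3 untreated libraries. FOS, the gene by which the family is best known, was therefore among the least abundant, and its partner genes JUND and JUNB were above it by per-length level in every untreated library.

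**Figure D1:**
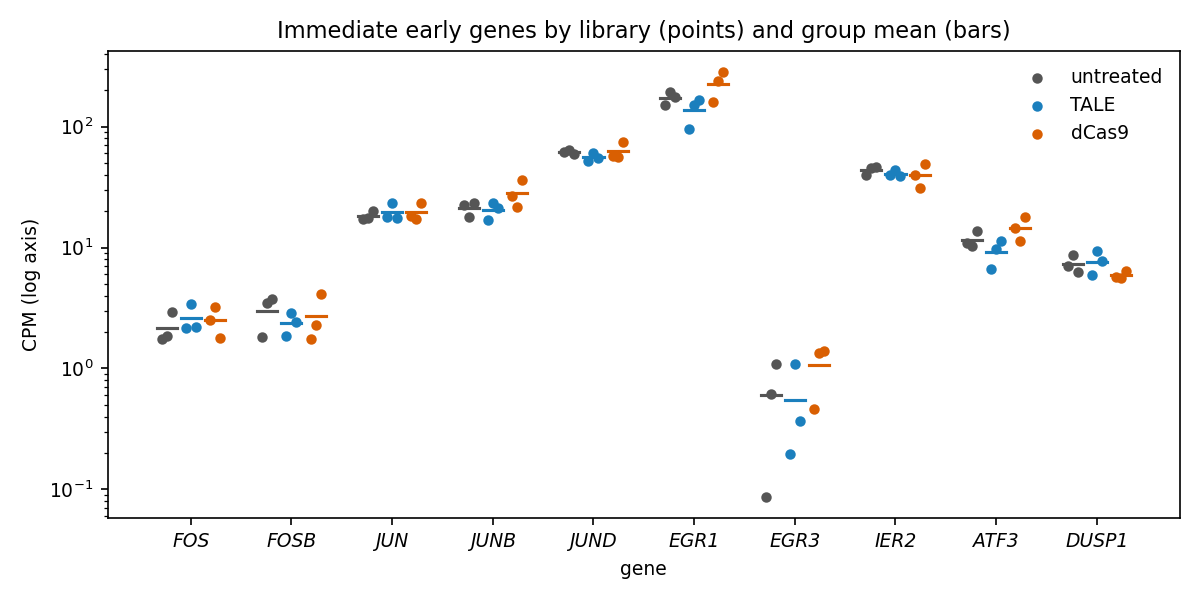
Level of each of the 10 genes in CPM (log axis) in the 9 RNA libraries; points are libraries, bars are group means and colours are groups. The libraries of the 3 groups overlap for every gene, and EGR1 shows the widest separation of its dCas9 points (158, 239 and 282 CPM) from its TALE points (95.4, 152 and 167 CPM) among the well-covered genes.

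Among the AP-1 subunits, FOS and FOSB were measured least precisely. FOS (chr14:75745529-75748933, GRCh37, plus strand), the founding subunit, was at 1.75, 1.85 and 2.90 CPM in untreated replicates 1, 2 and 3, at 2.16, 3.39 and 2.22 in the TALE replicates and at 2.50, 3.21 and 1.78 in the dCas9 replicates. These rest on 15 to 44 counts per library. Each group held both low and high libraries, and the 3 ranges overlapped. Its log2 fold change was 0.29 (SE 0.34, 95% interval -0.42 to 0.99) in TALE cells and 0.22 (SE 0.34, interval -0.50 to 0.94) in dCas9 cells, each against untreated. FOSB (chr19:45971253-45978437, plus strand), a close relative whose splice form delta FosB is long-lived, was at 1.83, 3.46 and 3.75 CPM in untreated cells, 1.86, 2.85 and 2.41 in TALE cells and 1.76, 2.28 and 4.16 in dCas9 cells. Its highest and its lowest value were both in the dCas9 group. The differences were -0.30 (interval -1.06 to 0.46) for TALE and -0.11 (interval -0.87 to 0.65) for dCas9 against untreated. FOSB lies entirely within the annotated span of ERCC1, a DNA repair gene on the other strand at 49.4 CPM in untreated cells. The use of strand in counting is not given in the sources used here, so reads of the pair may be mixed. The overlap was read from gene spans, and whether exons are shared was not examined.

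The JUN subunits, which can pair with FOS proteins or with each other, were higher and steadier. JUN (chr1:59242517-59249720, minus strand) was at 17.3, 17.4 and 19.8 CPM in untreated libraries, 17.7, 23.4 and 17.4 in TALE libraries and 18.3, 17.2 and 23.4 in dCas9 libraries. One library in each treated group stood above the rest and the others lay in the untreated range or just under it. Its log2 fold change was 0.11 against untreated for both TALE (interval -0.22 to 0.44) and dCas9 (interval -0.22 to 0.45). JUND (chr19:18390504-18392432, minus strand), the subunit that is expressed most constantly in many cell types, was at 61.8, 63.4 and 59.2 CPM in untreated libraries, 52.2, 60.2 and 55.4 in TALE libraries and 57.0, 56.5 and 74.8 in dCas9 libraries. TALE libraries sat mostly below the untreated ones, with 1 inside their range, and dCas9 replicate 3 stood above all others. It had the narrowest intervals of the 10 genes: -0.13 (-0.39 to 0.12) for TALE and 0.03 (-0.23 to 0.29) for dCas9 against untreated. JUNB (chr19:12902300-12904129, plus strand), a growth-restraining JUN relative with a role in erythroid and myeloid cells, was at 22.3, 17.8 and 23.5 CPM in untreated libraries, 16.8, 23.2 and 21.1 in TALE libraries and 26.5, 21.5 and 35.9 in dCas9 libraries. The dCas9 values reached highest, but dCas9 replicate 2 lay within the ranges of both other groups. JUNB was the only one of the 10 with an unadjusted p under 0.05 for dCas9 against untreated, at 0.40 (SE 0.18, interval 0.02 to 0.78, unadjusted p = 0.0383, adjusted p = 0.815 by edgeR's quasi-likelihood test with Benjamini-Hochberg adjustment over all genes tested). Without dCas9 replicate 3 this difference was 0.18. The whole of JUNB overlaps the annotation of HOOK2 on the other strand, which was at 6.65 CPM in untreated cells.

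EGR1 (chr5:137801168-137804992, plus strand), a zinc-finger factor that is a direct target of ERK through its CArG boxes, was counted 974 to 2849 times per library. Its level was 152, 194 and 174 CPM in untreated replicates 1, 2 and 3, then 95.4, 152 and 167 in the TALE replicates and 158, 239 and 282 in the dCas9 replicates. TALE replicate 1 was the lowest and dCas9 replicate 3 the highest of the 9, while dCas9 replicate 1 lay below TALE replicate 3, so the groups overlapped. Against untreated cells EGR1 was at -0.33 (interval -0.75 to 0.09) in TALE cells and at 0.39 (interval -0.03 to 0.81) in dCas9 cells on the log2 scale. The first was -0.12 without TALE replicate 1 and the second 0.20 without dCas9 replicate 3. Between TALE and dCas9 cells the difference was -0.72 (SE 0.20, interval -1.14 to -0.29), which ranked 59 among all genes by p (unadjusted p = 0.00223, adjusted p = 0.521, edgeR). With no filter on low counts its adjusted p was 0.000661 (edgeR), in a fit that called 77 of 41469 genes. The main fit called 0 of 13786 genes in this comparison. The log2 difference hardly moved, at -0.70 without the filter. With the filter it was -0.51 without TALE replicate 1 and -0.53 without dCas9 replicate 3. The share of counts on genes of the mitochondrial genome, a measure of library makeup, was 6.00%, 4.04% and 6.32% in the TALE libraries, 6.15%, 14.0% and 10.8% in the dCas9 libraries and 7.15%, 10.3% and 10.2% in the untreated libraries. The 4 libraries with the highest share were also the 4 with the highest EGR1. This order did not hold for ATF3 and JUNB. For both, dCas9 replicate 1, with a share of 6.15%, lay above every untreated and TALE library (14.4 and 26.5 CPM). The part of the mitochondrial share in the EGR1 difference was not tested.

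**Figure D2:**
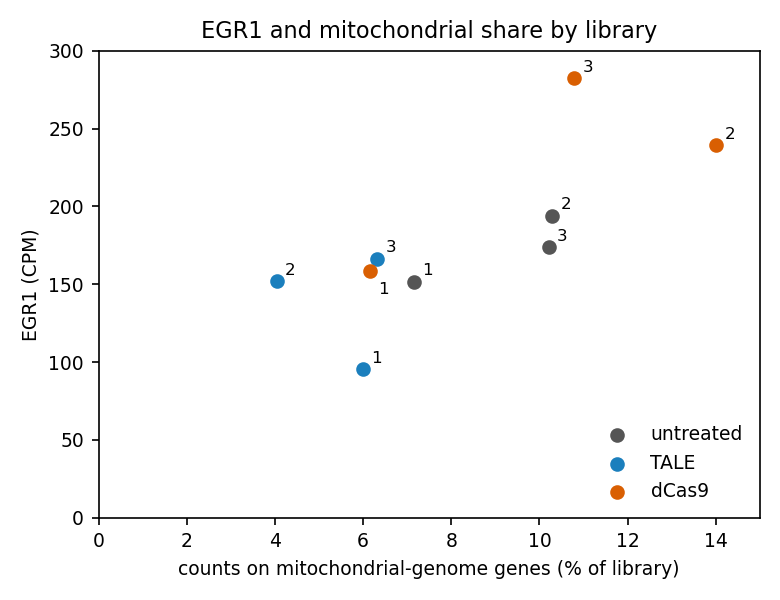
EGR1 level (CPM, y axis) against the share of counts on genes of the mitochondrial genome (% of the library, x axis), 1 point per RNA library with its replicate number and its group as colour. The 4 libraries above 10% are untreated 2 and 3 and dCas9 2 and 3, and they hold the highest EGR1 values, from 174 to 282 CPM.

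EGR3, a related factor induced in lymphocytes and neurons and encoded on chromosome 8, was barely detected. It had 1, 5 and 9 counts in the untreated libraries, 2, 14 and 4 in the TALE libraries and 5, 13 and 14 in the dCas9 libraries, or 0.0873 to 1.39 CPM. Values scattered within every group, and no direction can be read at this depth. Its intervals were the widest of the 10, from -1.49 to 1.60 for TALE against untreated and from -0.55 to 2.37 for dCas9. Its spread was also near the top of all genes, with a biological coefficient of variation at the 99.7 percentile. That measure put FOSB at the 92.6 percentile, FOS at 84.7, EGR1 at 77.2, ATF3 at 71.1, JUNB at 64.9 and DUSP1 at 62.5. JUN was at 47.8, IER2 at 42.6 and JUND at 22.7. Most of the 10, EGR1 and ATF3 among them, thus varied more between libraries of a group than most genes did. EGR1 did so although it had by far the highest counts of the 10.

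ATF3 (chr1:212738676-212794119, plus strand) codes for a stress-induced factor that binds CRE-like sites as a repressor or with JUN proteins. It was at 10.8, 10.4 and 13.7 CPM in untreated libraries, 6.66, 9.71 and 11.4 in TALE libraries and 14.4, 11.3 and 17.8 in dCas9 libraries. TALE replicates 1 and 2 lay below all other libraries and dCas9 replicates 1 and 3 above them, while TALE replicate 3 and dCas9 replicate 2 fell within the untreated range. The log2 difference between TALE and dCas9 cells was -0.64 (SE 0.21, interval -1.08 to -0.21, unadjusted p = 0.00589, adjusted p = 0.677, edgeR). Against untreated cells it was -0.32 in TALE cells (interval -0.76 to 0.12) and 0.32 in dCas9 cells (interval -0.11 to 0.76). These were -0.14 without TALE replicate 1 and 0.15 without dCas9 replicate 3. IER2 (chr19:13261225-13265725, plus strand), a small nuclear protein induced by serum, was at 40.1, 45.4 and 46.0 CPM in untreated libraries, 39.5, 43.8 and 38.7 in TALE libraries and 40.1, 31.0 and 48.6 in dCas9 libraries. Its dCas9 group held both the lowest and the highest library, and the others fell between them. IER2 differed from untreated by -0.10 (interval -0.40 to 0.19) in TALE cells and by -0.13 (interval -0.43 to 0.17) in dCas9 cells. Long non-coding genes on the other strand overlap parts of IER2 and EGR3 and the whole of DUSP1 in the annotation.

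DUSP1 (chr5:172195099-172198198, minus strand), the phosphatase that inactivates ERK, JNK and p38 and is itself induced by them, was at 6.98, 8.65 and 6.29 CPM in untreated libraries, 5.88, 9.40 and 7.69 in TALE libraries and 5.75, 5.59 and 6.44 in dCas9 libraries. The dCas9 libraries were low and close together, and each of the other groups had at least 1 library among them. DUSP1 was the gene of the 10 with the largest positive difference between TALE and dCas9 cells, 0.38 (SE 0.21, interval -0.06 to 0.82, unadjusted p = 0.0877, adjusted p = 0.814, edgeR), and this was 0.20 without TALE replicate 2. Against untreated cells it was at 0.08 (interval -0.36 to 0.51) with TALE and -0.30 (interval -0.75 to 0.15) with dCas9. For comparison, JUNB differed between TALE and dCas9 cells by -0.46 (SE 0.18, interval -0.83 to -0.08, unadjusted p = 0.0192, adjusted p = 0.745, edgeR). Without dCas9 replicate 3 the JUNB difference was -0.24.

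**Figure D3:**
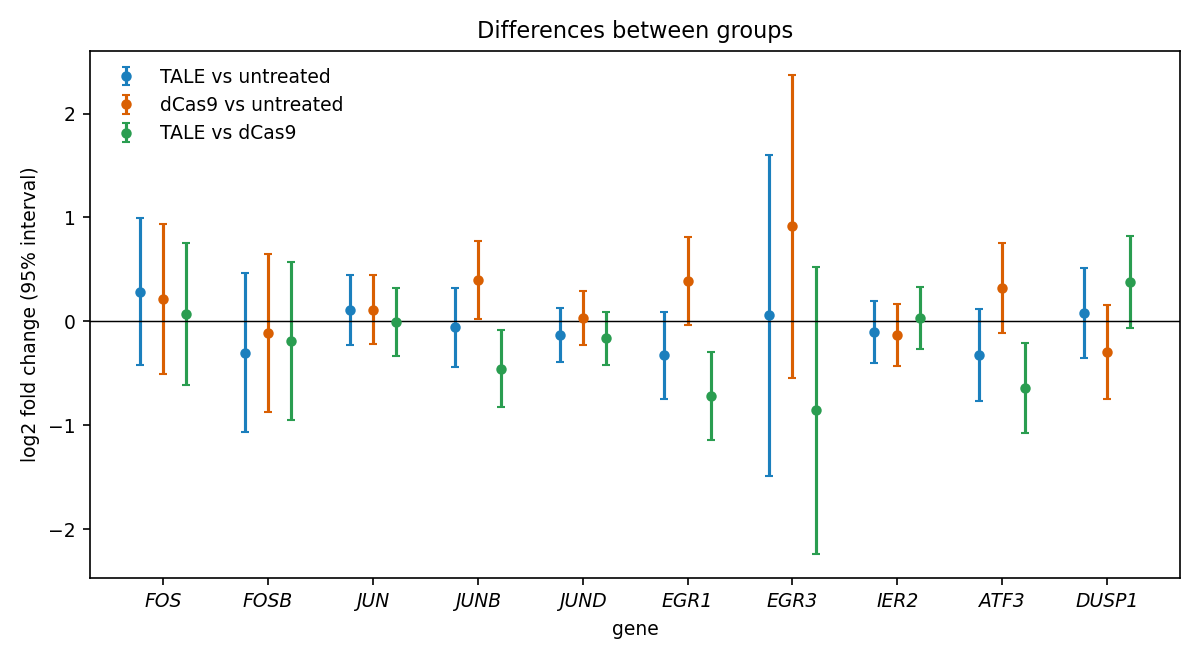
Log2 fold change of each of the 10 genes in 3 comparisons (colours), with 95% intervals from edgeR's fit as bars; the line marks no difference. Intervals of EGR1, ATF3 and JUNB lie below 0 for TALE against dCas9 and that of JUNB lies just above 0 for dCas9 against untreated (0.02 to 0.78), while EGR3 spans more than 1 log2 unit in each direction for TALE against untreated.

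Over the 10 genes, the number called at an adjusted p under 0.05 was 0 in each comparison. Over all genes the share called was 0.0218% when TALE cells were set against untreated cells and 0.029% when dCas9 cells were. It was 0.0363% for silenced against untreated, where silenced is the mean of TALE and dCas9, and 0% between TALE and dCas9 cells. DESeq2 called 0 of the 10 as well in each comparison. At an unadjusted p under 0.05 by edgeR, 0 of 10 passed for TALE (7.15% of all genes), 1 for dCas9 (5.93%), 0 for silenced (6.35%) and 3 for TALE against dCas9 (6.38%). The 3 were EGR1, ATF3 and JUNB, all lower in TALE cells. Groups without overlap were found for 0 of 10 genes in all 4 comparisons, while 12.5%, 11.6%, 3.54% and 9.38% of all genes had them. The median log2 fold change of the 10 was -0.08 for TALE, with 4 above 0 and 6 below, and 0.17 for dCas9, with 7 above and 3 below. It was 0.02 for silenced and -0.18 for TALE against dCas9, and the medians of all genes were within 0.01 of 0. The comparisons share their libraries, the untreated ones among them, so they are not independent of each other. The half-width of the 95% intervals for TALE against untreated ran from 0.26 for JUND to 1.55 for EGR3.

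A few single libraries held the extremes of most of the 10 genes. The highest value was in dCas9 replicate 3 for 7 of them (FOSB, JUNB, JUND, EGR1, EGR3, IER2 and ATF3), while 13.7% of all genes tested had their highest value there. TALE replicate 2 held the highest value of the other 3 (FOS, JUN and DUSP1), against 6.93% of all genes. The lowest value was in TALE replicate 1 for 4 genes (JUNB, JUND, EGR1 and ATF3), against 15.1% of all genes, in dCas9 replicate 2 for 3 (JUN, IER2 and DUSP1), in untreated replicate 1 for 2 (FOS and EGR3) and in dCas9 replicate 1 for FOSB. On a scale standardized within each gene over the 9 libraries, the mean of the 10 was 1.16 in dCas9 replicate 3 and -1.07 in TALE replicate 1. It was -0.19 and -0.18 in dCas9 replicates 1 and 2, so the 3 libraries of that group were not alike. Among 21 other immediate early genes tested, dCas9 replicate 3 held the highest value of 8. The mitochondrial share of dCas9 replicate 3, at 10.8%, was next to the highest of the 9 libraries, and its part in the pattern was not tested.

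Genes around this response were read from lists chosen by function. Of the 30 other immediate early genes listed, 21 had enough counts, as did 13 of 15 dimer partners of AP-1 and ATF, all 23 genes of the route from MAP kinase to SRF and 11 of 14 feedback inhibitors. No gene of the 4 lists was called in any of the 4 comparisons by edgeR, and list medians for silenced against untreated were -0.01, -0.01, 0.01 and 0.07 on the log2 scale. At an unadjusted p under 0.05 in that comparison 0 of 21, 0 of 13, 0 of 23 and 1 of 11 passed, beside 6.35% of all genes. The numbers were 2, 1, 0 and 0 for TALE against untreated, 1, 1, 0 and 2 for dCas9 against untreated and 1, 2, 0 and 0 between TALE and dCas9 cells, where the shares of all genes were 7.15%, 5.93% and 6.38%. The 1 gene that passed for silenced was SPRY2, an inhibitor of RAS signalling induced by growth factors. It was at 3.32, 4.08 and 4.48 CPM in untreated libraries, 2.55, 3.31 and 2.87 in TALE libraries and 2.97, 2.17 and 2.58 in dCas9 libraries. Every silenced library lay below every untreated one, by a narrow margin, and the log2 difference was -0.51 (SE 0.23, unadjusted p = 0.0353, adjusted p = 0.737, edgeR), while 2.01% of all genes showed such a separation downward.

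The other genes named for the lists had smaller or less certain differences for silenced against untreated. NR4A2, an immediate early nuclear receptor, was at -0.34 on the log2 scale (unadjusted p = 0.0618, adjusted p = 0.807, edgeR). IER3 was at 0.25 and KLF6, a zinc-finger factor, at -0.17. MAFK, a small MAF protein that pairs with NFE2 in erythroid cells, was at 0.48 (unadjusted p = 0.0579, adjusted p = 0.804, edgeR), NFE2 itself at 0.19 and ATF1 at 0.13. ELK3, a ternary complex factor, was at 0.37 (unadjusted p = 0.0518, adjusted p = 0.795, edgeR), while MAPK3, which codes for ERK1, was at -0.18. DUSP10, a phosphatase of JNK and p38, was at -0.27 (unadjusted p = 0.121, adjusted p = 0.846, edgeR), and like SPRY2 each of its silenced libraries (5.49 to 7.78 CPM) lay below each untreated one (7.87 to 9.27 CPM). NAB2, a corepressor that binds EGR proteins, was at 0.29. None of these genes passed the threshold after adjustment.

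The genes most like the 10 in their pattern were found by the mean absolute difference between standardized profiles over the 9 libraries, among 8649 other genes at 10 CPM or more. ITGA5, a fibronectin receptor subunit, came closest to the mean profile of the 10, with a difference of 0.183 against a median of 1.11 over the genes compared. It was at 67.4, 76.7 and 80.0 CPM in untreated libraries, 58.1, 80.4 and 67.3 in TALE libraries and 74.3, 70.9 and 88.7 in dCas9 libraries. Its lowest value in TALE replicate 1 and its highest in dCas9 replicate 3 follow from its choice by likeness over these same libraries. They are no independent support for the pattern. SLC35C1 (0.249) and NCOA7 (0.277) followed. Closest to EGR1 were CREB3L1 (0.257), UBALD1 (0.266) and C19orf54 (0.295). For FOS they were MAPKAPK3 (0.359), ETV1 (0.406) and ATP6V0A2 (0.414), and for JUN they were PI4K2A (0.303), MAP2K5 (0.305) and SLC48A1 (0.311). Among the 10 themselves, JUNB and ATF3 were the most alike (0.409), followed by EGR1 and ATF3 (0.455), and FOS and JUND the least (1.39). FOS was at 0.801 from JUN and 1.05 from JUNB, beside a median of 1.11 over the genes compared with FOS. Its profile rests on 15 to 44 counts per library, which limits these distances.

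In the MeDIP table, 25 regions lay in the 10 genes or within 5 kb of them, and 17 of these had enough counts to be tested. The table holds only regions under a peak of at least 1 sample, so DNA outside it was not measured. No region covered a start site of the 10 genes, and none of the peak lists had a peak there. Of 10197 tested protein-coding genes, 0.579% had a region over the start. A region lay within 2 kb of the start for 2 of the 10 genes, IER2 (1352 bases upstream) and ATF3 (1303 bases upstream of the start used here), against 54.4% of those genes. Peaks of single samples can reach beyond the regions. For EGR1 they came within 2 kb of the start in samples of all 3 groups, to 1033 bases in untreated replicate 3. For JUND they came to -1974 bases in dCas9 replicate 3. The distance from start to nearest region was 1303 to 6448 bases, with a median of 2276 bases against 1850 over all. EGR1 had its nearest region 2100 bases upstream and another in its coding sequence, JUND 2143 bases upstream, FOS 2219 bases upstream and DUSP1 in its coding sequence, 2333 bases past the start. The upstream sequences printed above for EGR1, JUNB and DUSP1, which hold 25, 27 and 30 CpG, were therefore not covered by any region. In 7 of the 25 regions all 9 samples had a peak, both regions of EGR1 among them.

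**Figure D4:**
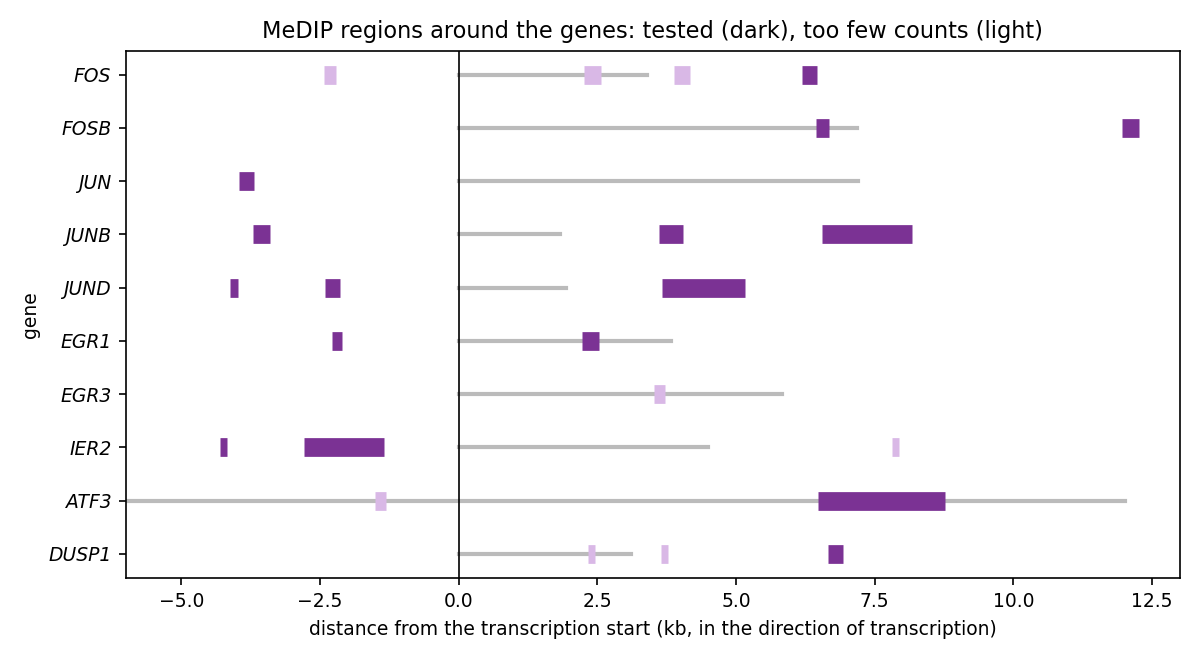
MeDIP regions (boxes) around the 10 genes, placed by distance from the transcription start in kb in the direction of transcription; grey lines are gene bodies, dark boxes were tested and light boxes had too few counts. No box crosses the line at 0, and only IER2 and ATF3 have a box within 2 kb of it; a region of ATF3 at -36534 bases is off the axis.

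No region near the 10 genes was called in any comparison by edgeR, against 0%, 0.000947%, 0% and 0.000947% of all 105652 regions tested for TALE, dCas9, silenced and TALE against dCas9. At an unadjusted p under 0.05 the numbers were 0, 2, 1 and 1 of 17, against 4.74%, 4.69%, 4.88% and 4.47% of all regions. The region upstream of IER2 (chr19:13258431-13259873) was at 23.96, 23.3 and 28.7 CPM in untreated libraries, 26.3, 33.0 and 28.6 in TALE libraries and 39.9, 32.7 and 33.2 in dCas9 libraries. All 3 dCas9 libraries lay above the untreated ones, and the TALE libraries overlapped them. Its log2 difference was 0.47 for dCas9 against untreated (SE 0.18, unadjusted p = 0.00974, adjusted p = 1.00, edgeR) and 0.34 for silenced against untreated (unadjusted p = 0.0339, adjusted p = 1.00, edgeR). IER2 mRNA, at -0.13 for dCas9, did not pass the test in either direction. Separation of all 3 dCas9 libraries from the untreated ones was not particular to the IER2 region. They also lay above the untreated ones in the region 6663 bases past the start of DUSP1. They lay below them in the regions at -2143 bases from the start of JUND and at -36534 bases from that of ATF3. The share of all regions that separate in this way was not counted, so the separation at IER2 has no background to be read against.

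The other regions named by the smallest p for silenced against untreated were near JUN, JUND, JUNB and DUSP1. The region upstream of JUN (chr1:59253402-59253676) was at 4.61, 2.97 and 2.80 CPM in untreated libraries, 7.39, 7.07 and 4.67 in TALE libraries and 1.98, 8.05 and 6.04 in dCas9 libraries. Its lowest library and its highest were both dCas9, and the log2 difference for silenced was 0.74 (SE 0.38, unadjusted p = 0.0562, edgeR). Downstream of JUND (chr19:18387266-18388767) the values were 33.5, 41.6 and 26.2 CPM in untreated libraries, 37.9, 34.1 and 37.9 in TALE libraries and 42.3, 41.5 and 45.8 in dCas9 libraries. The dCas9 values lay close to the highest untreated one or above it, with a log2 difference of 0.37 for dCas9 against untreated (unadjusted p = 0.0257, edgeR) and of 0.25 for silenced. The regions upstream of JUNB and downstream of DUSP1 were at 0.33 (SE 0.31) and 0.31 (SE 0.33) for silenced. That of JUNB had a peak in 1 sample only, dCas9 replicate 1. It is thus listed through a silenced sample, and its higher silenced values are no independent test. The region of ATF3 at -36534 bases from the start used here was the 1 that passed the unadjusted threshold between TALE and dCas9 cells, with 3 to 22 counts per library. Only TALE replicate 3 had a peak there, so the region is listed through a TALE sample and its higher TALE values are no independent test. At EGR1, the upstream and coding regions were at -0.18 (SE 0.29) and -0.23 (SE 0.29) for silenced against untreated.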

How the data were processed

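RNA values are counts per gene that the authors deposited for 9 libraries, and MeDIP values are counts per region that the authors deposited for 9 libraries. Per the submitters' processing notes, STAR 2.3.0 was used for RNA and BWA 0.7.5, Picard, MACS2 and bedtools for MeDIP, on the build hg19 (GRCh37). The counter, its annotation and its use of strand are not given in the sources used here. Each MeDIP sample has its own deposited peak list, whose fold enrichment values are the authors' and were used only to describe peaks. Per the labels' protocols, cDNA was made with a kit for degraded RNA, and MeDIP libraries were pooled before capture. Amplified fragments carry no molecular identifier, so counts are not independent molecules.

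Tests of the counts used edgeR 4.0.16 (R 4.3.3): TMM factors, filterByExpr with a minimum count of 10, and the quasi-likelihood test on 1 model of group means over the 9 libraries of an assay. Calls needed a Benjamini-Hochberg adjusted p under 0.05 over all features tested, and every adjusted p in the text is of this kind unless another tool is named. Log2 fold changes use a prior count of 0.125, with an SE derived from the test statistic. CPM are TMM-scaled, and standardized profiles use log2 of CPM plus 0.5. The code was tested on simulated data. Alternatives were RLE and upper-quartile factors, no filter and a stricter one, DESeq2 1.42.0, fits on the compared groups alone, a replicate block and each library left out.

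Gene positions and exon lengths came from GENCODE on GRCh37. MeDIP regions within 5 kb of a gene were assigned to it. Text names all 10 genes, the 3 genes per list and the 5 regions with the smallest p for silenced against untreated, and the 3 genes closest in profile to the mean of the 10, to FOS, to EGR1 and to JUN. One gene that this rule names is not reported here. The region far upstream of ATF3, that at -2143 bases from the start of JUND and those of EGR1 were added after their values were seen. The genes, the lists and this rule were chosen with earlier results of these data known. In bulk samples, fewer cells of a type and less RNA per cell cannot be told apart.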

Additional observations from a re-analysis of the deposited data

How the results depend on the processing

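Of 625 log2 fold changes of the 10 genes under alternatives, 582 kept their sign and their side of the threshold, 42 changed sign and 1, EGR1 in TALE against dCas9 with no filter on low counts, passed the threshold (1 of the 10 genes called). The results that changed sign were at most 0.49 in size, and the cause was not tested. Without a filter, JUN in the same comparison was at 0.017. EGR3 in TALE cells against untreated was at -0.035 with DESeq2. ATF3 in silenced cells was at -0.00077 with RLE factors, -0.012 with upper-quartile factors, -0.0070 with at least 10 counts in every library and -0.0026 with DESeq2. Leaving out 1 library at a time changed the sign of 16 of 40 results, with the ranges that follow. In the comparison of TALE against untreated the ranges were -0.046 to 0.19 for JUN, -0.16 to 0.066 for JUNB, -0.93 to 0.85 for EGR3 and -0.10 to 0.23 for DUSP1. In the comparison of dCas9 against untreated the ranges were -0.55 to 0.13 for FOSB, -0.030 to 0.20 for JUN, -0.11 to 0.099 for JUND and -0.30 to 0.020 for IER2. In the comparison of silenced against untreated the ranges were -0.065 to 0.13 for EGR1, -0.13 to 1.28 for EGR3, -0.088 to 0.13 for ATF3 and -0.20 to 0.021 for DUSP1. In the comparison of TALE against dCas9 the ranges were -0.19 to 0.28 for FOS, -0.43 to 0.24 for FOSB, -0.16 to 0.14 for JUN and -0.12 to 0.19 for IER2. Over all genes, the number called was 3 for TALE, 4 for dCas9, 5 for silenced and 0 for TALE against dCas9. It was 74 (11 higher, 63 lower), 89 (58 and 31), 79 (27 and 52) and 77 (5 and 72) with no filter, 1, 2, 3 and 0 with at least 10 counts in every library, and 9, 27, 36 and 0 with DESeq2. With only the groups compared it was 8 for dCas9. Leaving out 1 library gave 2 to 16, 2 to 10, 2 to 33 and 0 to 21, highest without TALE replicate 3 in the first 3 and without dCas9 replicate 1 in the last. Fits without 1 library leave a group of 2, and none called a gene of the 10 or a region near them. Ranges of EGR3, FOS and FOSB were wide without a change of sign too: 0.30 to 1.71 for EGR3 and 0.0046 to 0.47 for FOS in dCas9 cells against untreated, and -0.59 to -0.11 for FOSB in TALE cells against untreated. These 3 genes had the lowest counts of the 10, and the part of low counts in the ranges was not tested.

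The replicate numbers did not pair the RNA libraries. Deviations from group means correlated at -0.28 to 0.10 over the 9 pairs of libraries with the same number, with 1 over 0.1, and at -0.14 to 0.25 over the others. With the replicate number as a block, 2 genes were called for dCas9 against untreated. EGR3 for TALE was then at -0.056, EGR1 for silenced at -0.010 and ATF3 for silenced at -0.0090, and no gene of the 10 was called.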
